A study of Mus musculus with 8 samples.

Results

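The metallothioneins Mt1 and Mt2 and 8 genes of the oxidative stress response (Hmox1, Nqo1, Gclc, Gclm, Txnrd1, Srxn1, Nfe2l2 and Slc7a11) were followed in the skin of mouse embryos that lack p63, a transcription factor (gene Trp63) needed to build stratified epithelia. The members were chosen by name: every probe set whose platform annotation gives 1 of these 10 symbols was taken, 18 probe sets of the 24965 on the A and B chips of an Affymetrix mouse array pair (genes named by 1 symbol number 13675). All 10 genes had a probe set on the A chip, and 5 also on the B chip. Whole skin was taken from p63 null and wild-type embryos at stage E18.5, in embryonic days, obtained by crossing mice heterozygous for p63. Each chip was hybridised with RNA of 2 null and 2 wild-type skin samples, which the titles number 1 and 2 in each genotype. Each sample is called an embryo below, though the titles do not say whether it came from 1 embryo. The labels name no strain, litter, sex or p63 allele, and leave unsaid whether embryo 1 of the A chip is also embryo 1 of the B chip. The comparison asks which of these transcripts differ between p63 null and wild-type skin late in gestation.

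Metallothioneins are small cysteine-rich proteins that bind zinc and copper and scavenge oxidants. Mt1 and Mt2 are made in most tissues and are induced by the zinc sensor Mtf1, glucocorticoids and inflammation, whereas Mt4 belongs to differentiating stratified epithelium and Mt3 is best known from brain. The other members centre on Nfe2l2 (Nrf2), a transcription factor that Keap1 and Cul3 mark for degradation and that oxidants and electrophiles release. Its classical targets include heme oxygenase 1 (Hmox1), the quinone reductase Nqo1, the subunits Gclc and Gclm of the enzyme that limits glutathione synthesis, thioredoxin reductase 1 (Txnrd1), sulfiredoxin (Srxn1) and the cystine importer Slc7a11.

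The values are MAS5 signals, 1 linear-scale intensity per probe set, and log2 differences are null minus wild type on a log2(signal + offset) scale, which understates changes of low signals. Of the 18 probe sets 10 lay above the level set for testing, 8 of the A chip and 2 of the B chip, and they cover 8 genes; both probe sets of Nqo1 and both of Slc7a11 lay below it. MAS5 detection calls were not used here, so low signals are given only as levels. In limma, with Benjamini-Hochberg adjustment over all probe sets tested on the chip and a threshold of 0.05, 2 of the 8 tested on the A chip were higher in the null and 2 lower, while 22.1% of all tested A-chip probe sets were higher and 22.2% lower. For the B chip 1 of 2 was higher and 0 lower (0 also at an unadjusted p under 0.05), against 14.5% and 14.9% of all. Null and wild-type arrays did not overlap for 6 of the 8 A-chip and 1 of the 2 B-chip member probe sets, where this held for 73.9% and 67.7% of all tested probe sets. The shares of members called are thus near those of the whole chip on the A chip, and 2 probe sets are too few to read a share on the B chip. The median log2 difference was 0.35 over the tested members and 0.02 over all tested A-chip probe sets; the B-chip medians were 0.37 and 0.04. Trp63, the gene targeted, read 379.3 and 347.1 in wild type against 61.9 and 46.6 in the null on the A chip (limma adjusted p = 1.13e-05), though no source used here says whether its probes lie in the deleted part. The arrays had been scaled to a near-equal trimmed mean signal, 250.1 to 250.2 for the A chip and 500.1 for the B chip, and log2 values correlated at 0.950 to 0.984 between embryos of a genotype and 0.769 to 0.865 between genotypes. Nothing in the labels says that the embryos of a genotype came from separate litters, so p-values measure the spread between these samples.

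The plot of member signals shows each array apart, so that the spread between embryos can be read beside the genotype difference.

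**Figure D1:**
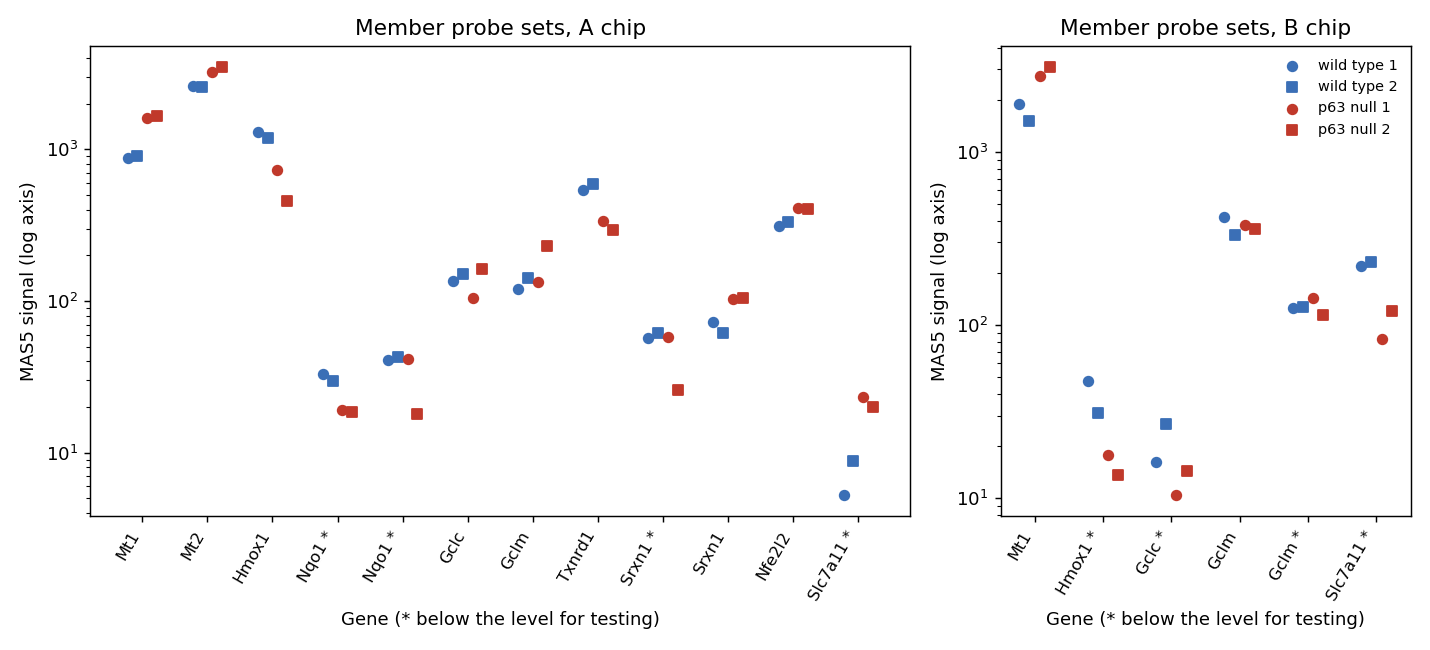
MAS5 signal (log axis) of the 18 member probe sets on the A chip (left) and B chip (right), 1 point per array, with wild type in blue, p63 null in red and the embryo number as the shape. Both null arrays lie above both wild-type arrays for Mt1 on each chip and for Mt2, and below them for Hmox1 and Txnrd1, while those of Gclc and Gclm overlap with wild type on the A chip.

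Both metallothioneins of the list rose in null skin. On the A chip Mt1 read 881.2 and 901.7 in wild type against 1615.6 and 1667.9 in the null. Its log2 difference was 0.87 (SE 0.11, limma adjusted p = 2.68e-04), with a 95% interval of 0.62 to 1.12, and 17.3% of all tested A-chip probe sets differed by at least as much. The null arrays lay far above the wild-type arrays, and the embryos of a genotype differed little. The B-chip probe set of Mt1, of the class ending in r_at for which the array's probe selection rules were relaxed, read 1900.3 and 1516.6 in wild type against 2746.4 and 3081.9 in the null. The log2 difference was 0.76 (SE 0.15, limma adjusted p = 0.00937). The groups again did not overlap, but the wild-type embryos stood further apart, and without wild-type replicate 2 the difference was 0.60 with an adjusted p of 0.0706. Mt2 read 2620.2 and 2567.5 in wild type against 3225.3 and 3473.4 in the null, a log2 difference of 0.37 (SE 0.11, limma adjusted p = 0.0248). This rise was about as large as the typical difference on the chip, since 53.2% of tested probe sets differed by at least as much. Mt2 did not pass when wild-type replicate 1 (adjusted p = 0.159) or 2 (0.217) was left out, with median centring (0.0622), with no filter (0.0536) and with no variance trend (0.0702), while the difference stayed between 0.31 and 0.42 in all settings. Mt1 and Mt2 are close paralogs, and binding of either transcript to the other's probes was not tested.

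The other genes of the metallothionein cluster gave other values, though differences between genes were not tested. In the RefSeq annotation of GRCm38.p6, Mt4, Mt3, Mt2 and Mt1 follow each other on chromosome 8 with no other protein-coding gene between them. Mt4, the epithelial metallothionein, read 216.1 and 217.9 in wild type against 4.8 and 8.5 in the null. The wild-type arrays were nearly equal, and the null arrays were at the bottom of the chip's range. Its mean over the 4 arrays lay below the level for testing; with no filter the log2 difference was -3.56 (SE 0.24, limma adjusted p = 4.28e-04). Mt3 read 738 and 676.2 in wild type against 673.5 and 668.4 in the null, and its log2 difference of -0.07 (adjusted p = 0.642 by limma) had a 95% interval of -0.34 to 0.19. Mtf1, the zinc-sensing factor that drives Mt1 and Mt2, had log2 differences of 0.34 on the A chip (SE 0.22, limma adjusted p = 0.247) and 0.31 on the B chip (SE 0.22, limma adjusted p = 0.330).

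**Figure D2:**
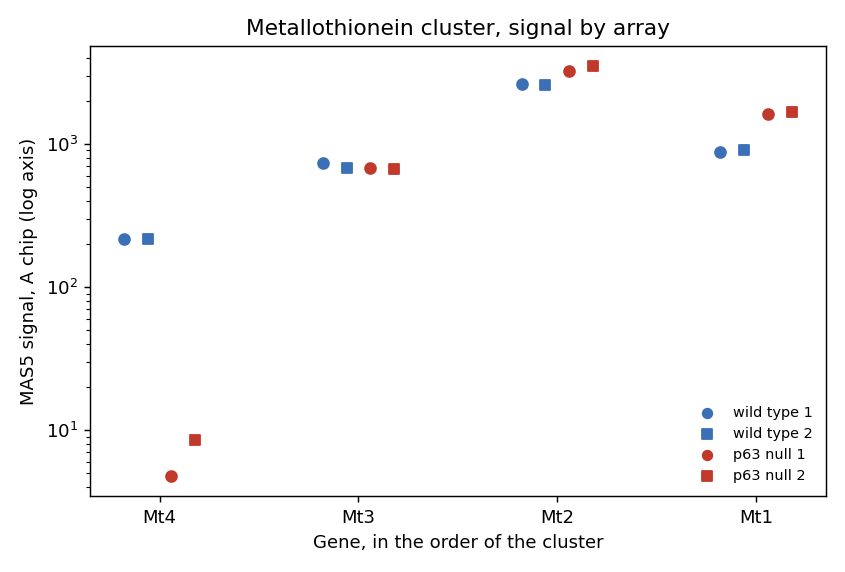
MAS5 signal on the A chip (log axis) of the 4 genes of the metallothionein cluster, in their order along the chromosome, 1 point per array. The null arrays (red) lie above wild type (blue) for Mt1 and Mt2, at 673.5 and 668.4 beside wild type for Mt3, and at 4.8 and 8.5 for Mt4.

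The sequences upstream of the 4 genes are shown because the genes lie side by side while 2 of them, Mt1 and Mt2, rose and the signal of Mt4 was near the chip's lowest in the null. They are from RefSeq (GRCm38.p6, plus strand, written 5′ to 3′) and end at the base before the annotated start. The windows are chr8:94178839-94179088 for Mt1, chr8:94172368-94172617 for Mt2, chr8:94152357-94152606 for Mt3 and chr8:94136954-94137203 for Mt4. Capitals mark matches, on either strand, to the core of the metal response element bound by Mtf1, searched as TGCACNC and TGCGCNC.
Mt1: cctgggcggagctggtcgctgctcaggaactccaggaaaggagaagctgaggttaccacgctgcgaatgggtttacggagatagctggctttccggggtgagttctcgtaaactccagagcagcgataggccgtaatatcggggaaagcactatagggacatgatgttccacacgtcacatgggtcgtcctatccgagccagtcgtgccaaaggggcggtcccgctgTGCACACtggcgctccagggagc
Mt2: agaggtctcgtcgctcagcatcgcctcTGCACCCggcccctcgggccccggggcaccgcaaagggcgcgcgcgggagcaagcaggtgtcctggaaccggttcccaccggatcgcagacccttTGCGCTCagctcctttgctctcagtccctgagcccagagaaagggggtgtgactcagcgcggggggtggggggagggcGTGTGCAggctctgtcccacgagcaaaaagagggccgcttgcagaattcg
Mt3: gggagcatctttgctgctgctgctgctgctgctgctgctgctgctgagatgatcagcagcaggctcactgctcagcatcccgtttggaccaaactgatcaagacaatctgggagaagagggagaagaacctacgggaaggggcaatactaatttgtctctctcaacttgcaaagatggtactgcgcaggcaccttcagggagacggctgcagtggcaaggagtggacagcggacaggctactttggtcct
Mt4: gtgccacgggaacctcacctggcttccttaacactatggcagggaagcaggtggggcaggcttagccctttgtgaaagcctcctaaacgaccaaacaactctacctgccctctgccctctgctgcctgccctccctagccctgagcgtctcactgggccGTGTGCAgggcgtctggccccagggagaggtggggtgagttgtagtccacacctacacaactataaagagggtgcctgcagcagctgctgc
The search covered these 250 bases and the next 50 after the start. Mt2 held 4 matches, Mt1 3, Mt3 1 and Mt4 1, counting 2 of Mt1, 1 of Mt2 and the 1 of Mt3 that lie after the start and are not printed. Among the other members searched, Gclm, which was not called, also held 3 and Srxn1 held 1. The windows of Nqo1, Txnrd1, Nfe2l2 and Slc7a11 held 0. Of all 32851 RefSeq windows of 300 bases 25.7% held at least 1 such match and 1.97% at least 3, so that a single match is common. The core of the antioxidant response element bound by Nfe2l2 was searched as TGACNNNGC on both strands, and 12.4% of all windows held it. Among the members it was found once in the windows of Mt2, Gclm, Srxn1 and Nfe2l2 and in 1 of the 3 windows of Txnrd1, and not in those of Mt1, Nqo1 and Slc7a11. Hmox1 and Gclc were not among the windows used. These matches are descriptions of letters in a short window, and in Mt2 the antioxidant core did not overlap a metal response core. Bases outside the windows were not searched, so a gene without a match here, such as Mt1 for the antioxidant core, may hold 1 nearby. Positions are relative to the annotated start, and whether skin uses that start was not tested.

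Hmox1 and Txnrd1, which act on heme and on thioredoxin, fell in null skin. Hmox1, the inducible enzyme that breaks down heme, read 1292.8 and 1180.6 in wild type against 731.3 and 455.6 in the null. The log2 difference was -1.08 (SE 0.19, limma adjusted p = 0.00195), with a 95% interval of -1.52 to -0.64, and 11.3% of tested A-chip probe sets differed by at least as much. Both null arrays lay below both wild-type arrays, with null embryo 2 the lower; without it the difference was -0.75 and without null embryo 1 it was -1.41, and the call held in all 12 alternative settings. The B-chip probe set of Hmox1, below the level for testing, read 47.8 and 31.1 in wild type against 17.7 and 13.6 in the null. Txnrd1, the cytosolic reductase that recharges thioredoxin, read 538.7 and 589.7 in wild type against 337.6 and 294.6 in the null. Its log2 difference was -0.81 (SE 0.13, limma adjusted p = 0.00127), with a 95% interval of -1.12 to -0.51, and its call too held in all 12 settings.

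Nfe2l2 itself and the other tested members, Srxn1, Gclc and Gclm, did not pass the test, and Nqo1 and Slc7a11 were not tested. Nfe2l2 read 312.4 and 333.4 in wild type against 413.2 and 404.2 in the null, without overlap, and its log2 difference of 0.33 (SE 0.13, limma adjusted p = 0.0660) passed with quantile normalization alone (adjusted p = 0.0461). Its regulator Keap1 read 22.5 and 22.9 in wild type against 32.4 and 34.6 in the null, below the level for testing. Srxn1, which restores overoxidised peroxiredoxins, had 2 A-chip probe sets that differed in pattern. The one tested read 73.1 and 61.9 in wild type against 103.4 and 104.7 in the null, a log2 difference of 0.54 (SE 0.20, limma adjusted p = 0.0503, between 0.0231 and 0.231 over the alternatives), and passed with quantile normalization (0.0475), with the offset at the 40th percentile (0.0463) and with no variance trend (0.0231). The one below the level read 57.3 and 61.6 in wild type against 57.9 and 26 in the null, so that its groups overlapped.

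Neither subunit of glutamate-cysteine ligase was shown to differ. The modifier subunit Gclm read 120.8 and 141.7 in wild type against 133.3 and 230.6 in the null on the A chip, where null embryo 2 stood apart. Its log2 difference was 0.39 (SE 0.24, limma adjusted p = 0.214), and was 0.76 (adjusted p = 0.00846) without null replicate 1. On the B chip the tested Gclm probe set read 418.7 and 331.8 in wild type against 380.7 and 360.7 in the null, a log2 difference of -0.01 (limma adjusted p = 0.979) with a 95% interval of -0.46 to 0.44. The second B-chip probe set read 125.7 and 127.2 against 142.9 and 114.6. The groups overlapped in all 3 probe sets. The catalytic subunit Gclc read 136 and 151.7 in wild type against 105.4 and 161.4 in the null, with a log2 difference of -0.12 (limma adjusted p = 0.663) and a 95% interval of -0.61 to 0.36. The B-chip probe set of Gclc, below the level, read 16.1 and 26.9 in wild type against 10.5 and 14.4 in the null.

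Neither Nqo1 nor Slc7a11 had a mean over the 4 arrays above the level for testing. Nqo1, which detoxifies quinones, read 33 and 29.5 in wild type against 19.1 and 18.6 in the null in its f_at probe set, a class that can bind related sequences. The r_at probe set of Nqo1 read 40.6 and 42.6 in wild type against 41.7 and 18.1 in the null, so that only null embryo 2 was low. Slc7a11, which imports cystine for glutathione synthesis, gave opposite patterns on the 2 chips. The A-chip probe set read 5.3 and 8.8 in wild type against 23.2 and 20 in the null, and with no filter its log2 difference was 0.79 (SE 0.20, limma adjusted p = 0.0332). The B-chip probe set read 219 and 231.8 in wild type against 82.8 and 120.6 in the null, with -0.85 (SE 0.27, limma adjusted p = 0.0977) with no filter. No direction is therefore given for Slc7a11.

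**Figure D3:**
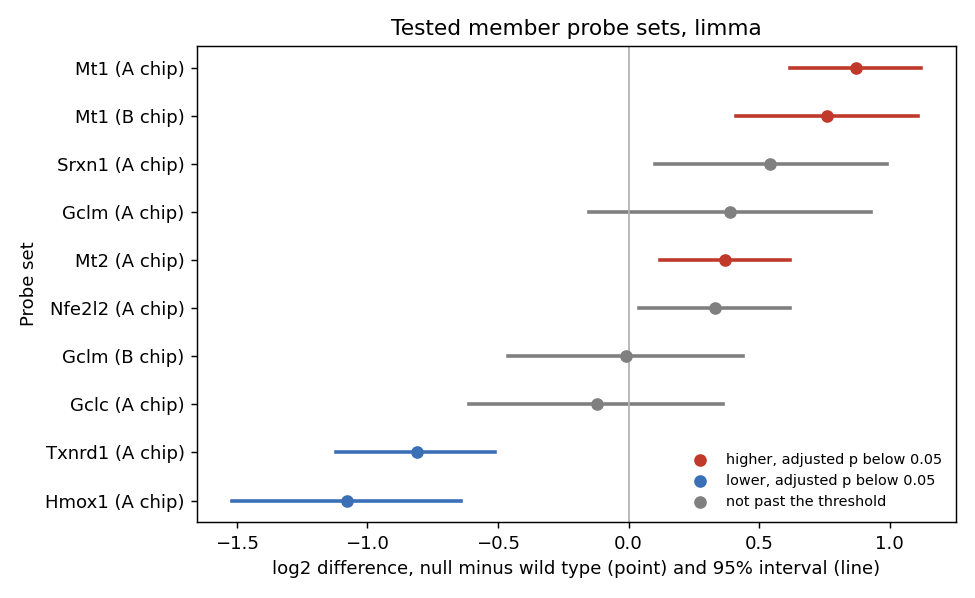
Log2 difference, null minus wild type (point), with its 95% interval (line) for the 10 tested member probe sets, coloured by the limma call. Mt1 on both chips and Mt2 are higher, Hmox1 and Txnrd1 lower, and the intervals of Gclc and of both Gclm probe sets cross 0.

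The tested probe sets of other genes whose 4 log2 values, each minus their own mean, lay nearest to those of Mt1 on the A chip were Slc29a1 (Euclidean distance 0.0406 over 4 arrays), Stab1 (0.0559) and Ndn (0.0589). Slc29a1 carries nucleosides and Stab1 is a scavenger receptor of macrophages and sinusoidal endothelium. Among B-chip probe sets the nearest to Mt1 were Rnf44 (0.0620), Abra (0.0641) and Myof (0.0804), the latter pair known from muscle. Nearest to Hmox1 on the A chip were Tmem50b (0.0577), the stress kinase Map2k4 (0.0581) and the transcription factor Sox4 (0.0680), all with null embryo 2 lowest; a second probe set of Sox4 had a log2 difference of 0.08 (limma adjusted p = 0.729). Nearest to the B-chip Gclm probe set, the lower of the 2 tested there, were Tmem86b (0.0313), Mlec (0.0450) and 5730409E04Rik (0.0461). These distances rest on 4 arrays.

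Marker genes of other cell types differed between genotypes beside these values; in whole skin fewer cells of a type cannot be told apart from less RNA per cell. Over the suprabasal and cornified keratinocyte markers, of which 8 of 8 tested were lower on the A chip, the summed signal of 9 genes was 31045 to 32525 in wild type and 3329 to 3903 in the null. The 10 basal keratinocyte markers on the chip summed to 11237 to 11287 and 932 to 1200, with 6 of 7 tested lower; Krt5 and Krt14 read at most 15.9 in all arrays, so these defining markers did not serve here. Macrophage and monocyte markers were higher in 11 of 11 cases, with sums of 3596 to 3853 over 12 genes in wild type and 9897 to 10597 in the null. Skeletal muscle markers were higher in 11 of 11 cases (10608 to 10644 and 22548 to 24493 over 12 genes), adipocyte markers in 8 of 9 (6941 to 7425 and 18121 to 19848 over 10 genes), endothelial markers in 7 of 9 (2790 to 2921 and 4860 to 5477 over 9 genes), fibroblast markers in 4 of 8 (29204 to 31299 and 34119 to 40889 over 9 genes), neutrophil markers in 3 of 5 (767 to 792 and 3736 to 3781 over 9 genes) and erythroid markers in 2 of 4 (15388 to 16878 and 17846 to 22194 over 5 genes). In these 7 lists 0 genes were lower on the A chip by limma, 0 also at an unadjusted p under 0.05. For comparison, 22.4% of all A-chip genes tested were higher and 22.8% lower. The 4 erythroid genes tested are too few to read a share. Most of the neutrophil sum in the null came from S100a8 and S100a9. S100a8 read 92.9 and 88.1 in wild type against 1867.2 and 1836.2 in the null, and S100a9 63.7 and 54 against 1048.5 and 1057.5. Of the other neutrophil markers tested, Csf3r rose by 0.48 (limma adjusted p = 0.0402). Elane (0.31, limma adjusted p = 0.342) and Camp (-0.14, 0.440) did not pass. Ltf, Ngp and Cxcr2, also neutrophil markers, lay below the level for testing and read higher in both null arrays than in both wild-type arrays. Both probe sets of Mpo, also below that level, overlapped between the groups. Some markers passed the level for testing, 54.0 on the A chip, only through the group where they were high. Among them, Ptprc (macrophage) and Plin4 (adipocyte) read below it in both wild-type arrays. Serpinb5, Dsc1 and Ivl (suprabasal) read below it in both null arrays. For such genes the filter helped to set the direction of the call. Of the marker probe sets 0 had a signal of exactly 0. As a sign of RNA integrity, the A-chip ratio of 3' to 5' beta-actin signal was 1.63 and 1.69 for the wild-type embryos and 1.27 for each null embryo. On the B chip it was 1.505 and 1.978 for wild-type replicates 1 and 2, and 1.359 and 1.326 for null replicates 1 and 2. The part of cell makeup and of RNA integrity in the member values was not tested.

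Genes around the members were read by the tested probe set of highest mean per gene, from 9 lists of 207 genes. The level for testing, 54.0 on the A chip, applies to the mean over 4 arrays. Cp, Ncf4, Txnrd2, Ces1d and Aox1 read below it in both wild-type arrays, so they were tested only through their null signal. Slc39a8 and Nfe2 read below it in both null arrays and were tested only through their wild-type signal. On the A chip 46 of 136 tested genes were higher, 23 lower and 67 did not pass, with a median log2 difference of 0.19; of all A-chip genes 22.4% were higher and 22.8% lower, with a median of 0.01. Of the B-chip genes 9 of 44 were higher and 10 lower, with a median of -0.01, where 16.1% of all genes were higher and 16.0% lower with a median of 0.04. These shares of all genes are the background for the counts of each list below.

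Zinc and copper handling, the setting in which metallothioneins work, was divided on the A chip, with 3 of 18 genes higher and 6 lower (median -0.10), and 1 of 9 higher and 4 lower on the B chip (median -0.45). Without wild-type replicate 2 the B-chip genes lower were 2. Among zinc transporters, Slc30a1, the plasma membrane zinc exporter that Mtf1 induces together with the metallothioneins, fell while Mt1 and Mt2 rose. It read 1150 and 1351.9 in wild type against 227.3 and 394.6 in the null on the B chip, a log2 difference of -1.87 (SE 0.24, limma adjusted p = 0.00150). Its A-chip probe set, below the level for testing, read 61.5 and 72 in wild type against 39.3 and 30.3 in the null. The importers Slc39a10 (1991 and 1833.8 in wild type, 497.3 and 556.8 in the null) and Slc39a8 (146.5 and 159.3, 30.1 and 33.1) fell, with log2 differences of -1.76 and -1.90 and limma adjusted p-values of 1.79e-04 and 1.09e-04. The importer Slc39a14, known from the acute phase, rose by 0.57 (limma adjusted p = 0.0290), which did not pass when wild-type replicate 1 (0.0979) or 2 (0.183) was left out; its other tested probe sets gave 0.73 (0.0482) and 0.18 (0.620). For copper, the circulating ferroxidase ceruloplasmin (Cp) rose from 36.4 and 41.3 to 510.3 and 514.5, a log2 difference of 3.35 (SE 0.16, limma adjusted p = 7.96e-07), and the chaperone Atox1 fell from 3037.5 and 3048 to 1631.6 and 1724.4, a log2 difference of -0.85 (limma adjusted p = 2.92e-04). Slc30a3 and Cox17 rose by 0.60 and 0.42, and Mtf2, a Polycomb-associated protein despite its name, fell by 0.78 (A chip) and 0.99 (B chip). Without wild-type replicate 2 these calls were lost (limma adjusted p = 0.228, 0.0558, 0.0642 and 0.140), and the A-chip counts were 1 higher and 3 lower. Without null replicate 2 the call of Mtf2 was lost on the A chip too (0.0601), again with 3 lower; without wild-type replicate 1 that of Cox17 (0.148), and without null replicate 1 that of Slc30a3 (0.0506). With no filter Slc30a3 (0.0808) and Mtf2 (0.0570 and 0.0560 on the A and B chips) did not pass, nor did Slc30a3 (0.0639) and Cox17 (0.0589) with no variance trend. A second A-chip probe set of Mtf2 fell by 1.08 (limma adjusted p = 0.00171).

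**Figure D4:**
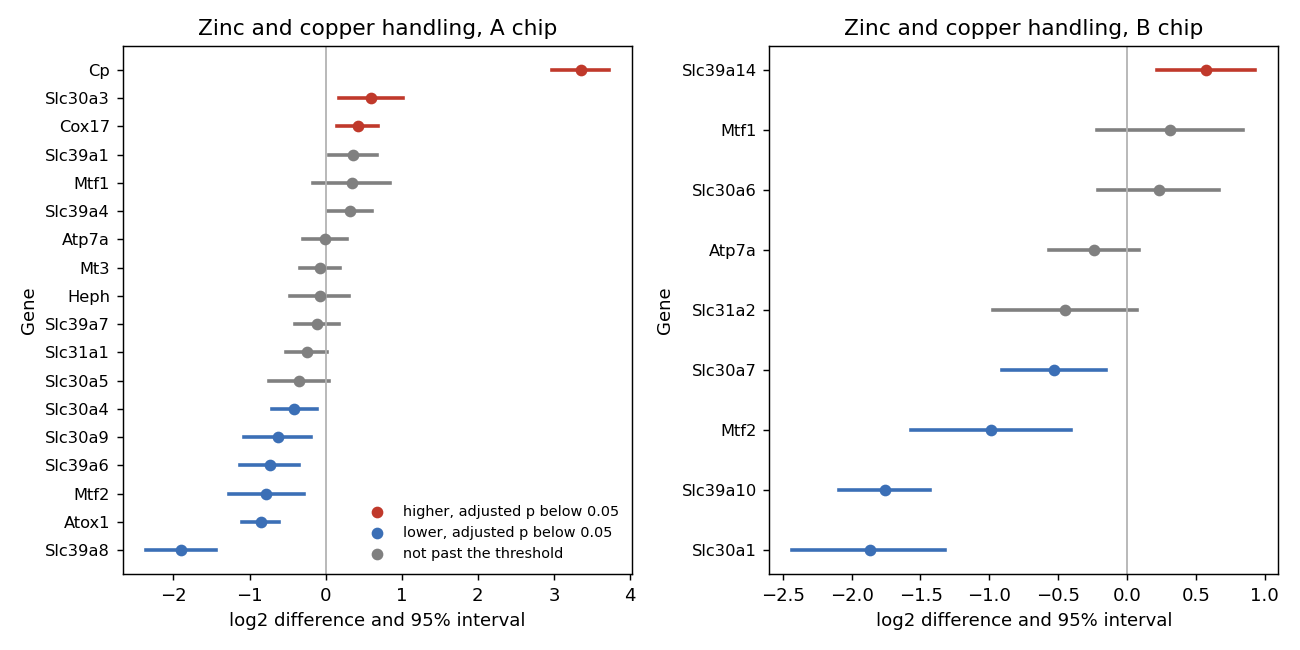
Log2 difference, null minus wild type (point), with its 95% interval (line) for each tested gene of the zinc and copper list on the A chip (left) and the B chip (right), coloured by the limma call. Slc30a1, Slc39a10 and Slc39a8 lie at -1.87, -1.76 and -1.90, and Cp at 3.35.

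Iron and heme handling, the setting of Hmox1, had 7 of 10 genes higher and 0 lower on the A chip by limma (1 lower at an unadjusted p under 0.05; median 0.84), and 1 of 6 in each direction on the B chip (median 0.17). Haptoglobin (Hp), which binds free hemoglobin, rose by 1.88 (SE 0.13, limma adjusted p = 8.74e-06), Alas1, the first enzyme of heme synthesis, by 1.23 (limma adjusted p = 5.89e-05) and Hfe by 1.11 (limma adjusted p = 0.00123). Cd163 (B chip), the macrophage receptor for hemoglobin bound to haptoglobin, rose from 640.9 and 614 to 1557.3 and 1367.7, while the iron exporter Slc40a1 fell from 3354.7 and 3667.2 to 1843.1 and 1497.5, log2 differences of 1.15 and -1.05 (limma adjusted p = 0.00136 and 0.00196). Hmox1, which acts between Cd163 and Slc40a1 in macrophages that recycle heme, fell as well. On the A chip 11 of 11 macrophage markers tested were higher, and the part of macrophages in the Hmox1 value was not tested.

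Of the superoxide and peroxide enzymes on the A chip 8 of 10 genes rose and 0 fell by limma (0 lower at an unadjusted p under 0.05; median 0.88), and 2 of 2 higher on the B chip. With the filter at the 60th percentile, which tests fewer genes, 5 were higher. The mitochondrial superoxide dismutase Sod2 read 291.9 and 271.9 in wild type against 678.7 and 620.5 in the null, a log2 difference of 1.17 (SE 0.13, limma adjusted p = 1.25e-04), and on the B chip rose by 0.73 (adjusted p = 0.0180, but 0.0953 or 0.0871 with wild-type replicate 1 or 2 left out). The phagocyte oxidase subunits Ncf4 and Cybb rose by 1.91 and 1.59 (limma adjusted p = 8.24e-05 and 0.00123) and xanthine dehydrogenase (Xdh) by 1.07 (0.00167). The cytosolic and extracellular dismutases Sod1 and Sod3, picked with their values known, had log2 differences of 0.04 and 0.13 (limma adjusted p = 0.817 and 0.429). The rise of the phagocyte subunits stood beside the macrophage marker sums given above, and the part of macrophages in it was not tested.

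Glutathione genes moved both ways, as did those of the whole chip, with 6 of 23 higher and 8 lower on the A chip (median 0.00). Of all A-chip genes 22.4% were higher and 22.8% lower. The B chip had 1 of 7 in each direction (median 0.09), where 16.1% of all genes were higher and 16.0% lower. Ggct, which splits gamma-glutamyl peptides, Mgst2 and Gsta2 fell, with log2 differences of -5.06, -2.59 and -2.31 (limma adjusted p of at most 1.71e-05). Gstz1, Mgst1 and the lipid peroxidase Gpx4 rose by 1.17, 0.72 and 0.71 (limma adjusted p of at most 0.00249). Some glutathione transferases are near-identical within a class, and the probe sets of such genes can bind related transcripts. Oplah rose on the B chip by 0.89 (limma adjusted p = 0.0134) and Gpx8 fell by 0.51 (0.0278); without wild-type replicate 1 neither passed (0.0676 and 0.0913), nor did Gpx8 without wild-type replicate 2 (0.165), with no filter (0.0600) or with no variance trend (0.0720). The thioredoxin and peroxiredoxin list had 2 of 11 genes higher and 2 lower on the A chip (median 0.08). Txnrd2 and Prdx3, both mitochondrial, rose by 0.93 and 0.86 (limma adjusted p = 0.00651 and 3.65e-04), while mitochondrial Txn2, picked with its value known, did not pass at 0.41 (0.0883). Cytosolic Txn1 and the Prdx4 of the endoplasmic reticulum fell by 0.40 and 0.48 (limma adjusted p = 0.0364 and 0.00757), calls lost without wild-type replicate 2 (0.292 and 0.0731), that of Txn1 also without wild-type replicate 1 (0.115), with median centring (0.0653), with no filter (0.0939) and with no variance trend (0.0859). Msra, the 1 gene tested on the B chip, rose by 0.95 (limma adjusted p = 0.00283).

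**Figure D5:**
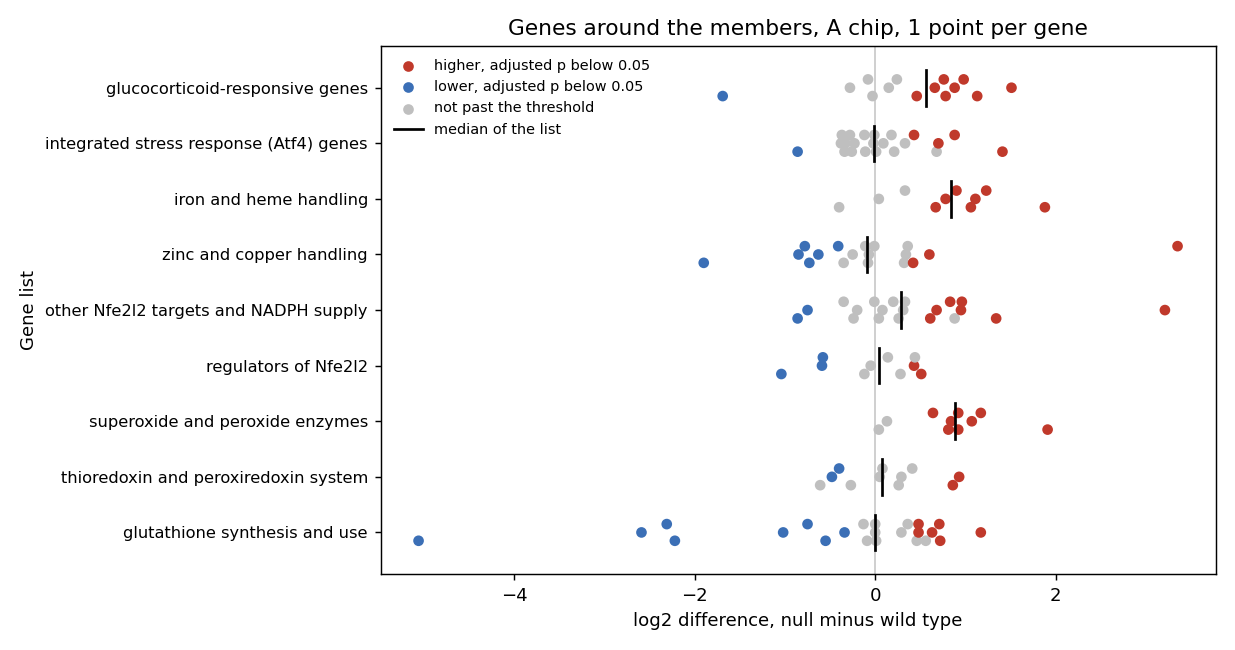
Log2 difference, null minus wild type, of each tested gene of the 9 lists on the A chip, 1 point per gene, with the median of the list as a bar and the limma call as the colour. The iron and heme list and the superoxide and peroxide list have 7 and 8 of 10 genes higher and 0 lower, while glutathione genes lie on both sides.

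The regulators of Nfe2l2 had 2 of 10 genes higher and 3 lower on the A chip (median 0.04), and 1 of 5 in each direction on the B chip (median -0.14). Cul3, the scaffold of the ligase that degrades Nfe2l2, fell by 0.58 on the A chip (limma adjusted p = 0.00359) and 0.61 on the B chip (0.0157, but 0.112 or 0.0824 with wild-type replicate 1 or 2 left out). Its other tested B-chip probe sets gave -1.14 (limma adjusted p = 0.0152) and -0.11 (0.601), the latter with overlapping groups. The related factor Nfe2l1 rose by 0.51 and the repressor Bach1, which holds Hmox1 down until heme removes it, by 0.43 (limma adjusted p = 0.00910 and 0.0294); without wild-type replicate 2 both calls were lost (0.0822 and 0.168), as was that of Bach1 without null replicate 1 (0.113), with no filter (0.0577) and with no variance trend (0.0662). The second tested probe sets of Nfe2l1 and Bach1 did not pass (0.22 and 0.34, limma adjusted p = 0.388 and 0.401). Nfe2, the erythroid relative, and Dpp3 fell by 1.04 and 0.59 (limma adjusted p = 0.00337 and 0.00726). The small Maf partner Mafg rose by 0.56 on the B chip (limma adjusted p = 0.0173, but 0.113 and 0.0835 without wild-type replicate 1 or 2). Other Nfe2l2 targets and NADPH enzymes were higher in 7 of 20 cases and lower in 2 on the A chip (median 0.29), and 1 of 7 in each direction on the B chip (median -0.02). Ces1d, a carboxylesterase known from liver and fat, Aox1 and malic enzyme (Me1) rose by 3.21, 1.34 and 0.96 (limma adjusted p of at most 0.00118), and Me1 by 0.89 on the B chip (0.0105, but 0.0572 without wild-type replicate 1). Carbonyl reductase Cbr3 fell by 0.86 (limma adjusted p = 0.00346) and Cyp2b10 by 0.75 (0.0432), the latter lost without wild-type replicate 1 (0.0673), wild-type replicate 2 (0.137) or null replicate 1 (0.223), with quantile normalization (0.0589) and with no filter (0.118). Abcc1, which exports glutathione conjugates, fell on the B chip by 0.55 (limma adjusted p = 0.0277, but 0.134 and 0.163 without wild-type replicate 1 or 2).

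Of the other inputs to these genes, the Atf4 list, which shares Slc7a11 as a target, had 4 of 22 genes higher and 1 lower on the A chip (median -0.01) and 0 of 6 higher and 1 lower on the B chip (0 and 3 at an unadjusted p under 0.05; median -0.41). Without null replicate 1 the genes lower by limma were 3 on the A chip and, for the B chip, 4, and without null replicate 2 they were 2 on the A chip. The glutamine carrier Slc1a5 and Shmt2 rose by 1.41 and 0.70, the serine enzyme Psat1 fell by 0.86, and the cationic amino acid carrier Slc7a1 fell by 0.94 on the B chip (limma adjusted p of at most 0.0110). The B-chip probe set of Shmt2 had a log2 difference of -0.18 (0.565) and that of Psat1 -0.46 (0.353). The tested Atf3 probe set, of the f_at class, rose by 0.88 (limma adjusted p = 0.00259). Another A-chip probe set of Atf3 went the other way, below the level for testing. It read 47.7 and 34.2 in wild type against 11.2 and 12.3 in the null, and no direction is given for Atf3. Genes that glucocorticoids induce, as they do metallothioneins, were higher in 8 of 14 cases and lower in 1 on the A chip (median 0.56). Pdk4, Cebpd and Angptl4 rose by 1.51, 1.13 and 0.98 and Ddit4 fell by 1.69 (limma adjusted p of at most 0.00123). Of the other probe sets of Angptl4, 1 rose by 0.64 (limma adjusted p = 0.0192) and 1 did not pass at 0.13 (0.663), and Fkbp5, a widely used readout of the receptor that was picked with its value known, differed by -0.08 on the log2 scale (limma adjusted p = 0.581). Klf9 rose on the B chip by 0.83 (limma adjusted p = 0.00353), where 1 of 2 genes was called in each direction (median 0.18). The receptor gene Nr3c1 gave opposite calls on the B chip, where its probe set of highest mean fell by 0.47 (limma adjusted p = 0.0307, but 0.155 and 0.174 with wild-type replicate 1 or 2 left out and 0.0636 with no variance trend), another rose by 0.71 (0.0375) and the other gave -0.57 (0.0531). No direction is given for Nr3c1.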

How the data were processed

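RNA of whole skin was hybridised to single-colour Affymetrix arrays, 2 per genotype on each of 2 chips. The deposited values are MAS5 intensities per probe set, per the submitters' processing notes; no source used here gives the MAS5 version, and no detection calls were used. The A chip had 12488 probe sets and the B chip 12477, of which 66 on each are controls and were left out. Groups and replicate numbers came from the titles. The platform annotation named the probe sets, and list symbols through RefSeq symbols and synonyms; no probe set with several symbols held a member. The 2 chips were never pooled.

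Each array was scaled to the chip's average 2% trimmed mean, which the arrays already nearly shared. The 20th percentile of the chip (12.9 and 54.3) was added before log2. Probe sets whose mean log2 over 4 arrays exceeded the chip's 40th percentile were tested (7453 and 7446) with limma 3.58.1 in R 4.3.3: lmFit, eBayes with an intensity trend, two-sided, Benjamini-Hochberg over the chip, threshold 0.05. The script was tested on simulated data. The number of arrays, 2 per group, limits the precision. Alternatives changed the scaling, offset, filter, variance model and replicate block, or left out an array. The genes named in the lists are the up to 3 largest called rises and falls with groups that do not overlap, plus Keap1, Mt3, Mt4 and Mtf1, and, picked with their values known, Sod1, Sod3, Txn2 and Fkbp5; for nearest profiles, the 3 closest to the members with the largest rise and fall on each chip. Members and lists were chosen with earlier results of these data known. RefSeq promoter windows span 250 bases before to 50 after a start.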

Additional observations from a re-analysis of the deposited data

How the results depend on the processing

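Of 117 recalculations of the 10 tested member probe sets under the alternatives, 106 kept their side of the threshold, 6 lost a call and 5 gained one, and 0 reversed a called direction. The log2 difference of Mt1 on the A chip ranged from 0.84 to 0.89, that of Txnrd1 from -0.91 to -0.72 and that of Hmox1 from -1.41 to -0.75, with all 3 called throughout, and that of Gclc, which was not called, from -0.41 to 0.16. The A-chip members called higher numbered 2, but 4 with quantile normalization and 1 with median centring, and 1 to 3 when 1 array was left out. B-chip members called numbered 0 to 1, all of them higher, when 1 array was left out, the 0 arising without wild-type replicate 2. Over the whole A chip, leaving out 1 array gave 1075 to 1579 probe sets higher and 1052 to 1797 lower, and over the B chip 575 to 1244 higher and 544 to 1354 lower; the lowest counts were all without wild-type replicate 2 and the highest all without null replicate 1, the lone array being assumed to vary like the other group. With the replicate number as a block (replicate block), 4 A-chip and 1 B-chip member probe sets were called and no member call changed; 1674 A-chip probe sets rose and 1694 fell, and 1229 B-chip probe sets rose and 1182 fell. The differences between numbers 2 and 1 correlated between genotypes at 0.0389 and -0.0465 across probe sets, so the numbers were not treated as pairs. Nqo1, Slc7a11, Keap1 and Mt4 lay below the level for testing by their mean over the 4 arrays. Mt4 and the B-chip probe set of Slc7a11 were above it in wild type, so the filter left out genes that were low in the null. It also left out genes that were low in wild type. Of these, the neutrophil markers Ltf and Ngp were picked with their values known. Ltf read 7.7 and 6.7 in wild type against 85.9 and 71 in the null, and Ngp 13.8 and 11.7 against 101.9 and 91.3.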
